A study of Mus musculus with 9 samples.

Results

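The 88 genes described here encode potassium channels and their auxiliary subunits, with the large-conductance calcium-activated BK channel left out. They were chosen by symbol: every protein-coding gene of the table whose name begins with Kcna, Kcnb, Kcnc, Kcnd, Kcne, Kcnf, Kcng, Kcnh, Kcnj, Kcnk, Kcnn, Kcnq, Kcns, Kcnt, Kcnu, Kcnv or Kcnip, which gave 88 of 49672 rows, on 19 chromosomes. No measured value entered that choice. RNA was measured in Merkel cells, epidermal cells that respond to light touch, and in basal keratinocytes, both sorted by flow cytometry from epidermis of Sox2-GFP mice at postnatal day 0. All cells, the controls included, came from mice with the Sox2-GFP reporter. Merkel cells were GFP-positive (3 libraries). Basal keratinocytes were GFP-negative and positive for both SCA1 and CD49F (6 libraries, a first and a second one for each of 3 sample numbers). The labels do not say how first and second basal libraries differ, whether a sample number is 1 animal or a pool, or how the reporter allele was made.

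Potassium channels let potassium leave the cell and so set its resting voltage and end its electrical responses. Two-pore channels are open at rest and hold the resting potential, inward rectifiers pass current best near that potential, and voltage-gated channels open when the cell is depolarised. Silent subunits do not conduct on their own and alter the voltage-gated channels they join, and auxiliary subunits change how fast channels open, close or reach the membrane. Merkel cells are excitable epidermal cells that fire calcium-dependent action potentials, which potassium currents shape.

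Levels are TPM (a transcript's share of a library, allowing for gene length, so that genes can be ordered within it). TPM keeps no read depth, and levels near 0 are the least precise. Between 13012 and 13575 genes of the whole table reached 1 TPM in Merkel libraries and between 13043 and 13649 in basal libraries. All 7 Merkel cell markers measured (Krt8, Krt18, Krt20, Atoh1, Isl1, Insm1 and Piezo2) were higher in Merkel cells and all 5 basal markers (Krt5, Krt14, Col17a1, Itgb4 and Itga6) were lower, so both labels matched their markers; CD49F, the product of Itga6, was also used in the sort. Merkel libraries still held much basal marker RNA: the 5 genes summed to 4444 to 4976 TPM there. Their sums were 15687 to 17163 TPM in first and 12623 to 14113 TPM in second basal libraries. The 7 Merkel markers summed to 719 to 966 TPM in Merkel libraries. What part keratinocyte RNA has in the channel levels of Merkel libraries was not tested. RNA of other cell types was also present in both fractions. Summed levels of 5 melanocyte genes were 145 to 203 TPM in Merkel libraries, 13.7 to 31.1 in first and 99.3 to 143 in second basal libraries. Summed levels of 5 dermal fibroblast genes were 70.8 to 90.9, 2.84 to 4.31 and 8.03 to 11.2 TPM in the same order, and those of 4 macrophage and Langerhans cell genes 13.0 to 25.7, 113 to 264 and 10.8 to 23.4 TPM. In such bulk samples fewer cells of a type and less RNA per cell cannot be told apart.

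Merkel libraries carried about as much two-pore channel RNA as basal libraries. Beside it they held transcripts of voltage-gated and EAG-family subunits and of the silent subunit gene Kcnv1, which basal libraries had at low levels. The 88 genes together summed to 144.85, 125.31 and 154.15 TPM in Merkel replicates 1, 2 and 3, to 71.84, 73.28 and 69.75 TPM in the first basal libraries and to 60.86, 77.15 and 65.60 TPM in the second. Every Merkel sum lay above every basal sum, also without Kcnv1 and Kcna4, the 2 genes with the largest fold changes (91.7 to 111 against 60.6 to 76.7 TPM). Two-pore channels summed to 32.2 to 35.7 TPM in Merkel and 30.0 to 40.5 TPM in basal libraries, ranges that overlap, and held 22.2% to 26.1% and 49.4% to 52.6% of the sums over all members. The pore-forming voltage-gated genes of the Kcna to Kcnd families summed to 18.8 to 23.0 TPM in Merkel and 1.67 to 2.37 TPM in basal libraries. Silent subunits gave 25.7 to 35.1 against 3.04 to 5.45 TPM, and the Kcnh genes 13.5 to 18.8 against 0.82 to 2.78 TPM. Kcnv1 alone gave 22.3 to 30.8 TPM of the silent sums in Merkel libraries. Kcns3, the next highest silent gene there, overlapped between the cell types. Auxiliary subunits were also higher in sum, at 15.6 to 19.4 against 6.93 to 11.4 TPM. Sums of inward rectifiers (10.4 to 13.3 against 8.19 to 13.5 TPM), Kcnq genes (3.81 to 4.77 against 2.29 to 6.81 TPM) and Kcnn genes (2.96 to 4.60 against 1.64 to 4.41 TPM) overlapped between the cell types. These sums are a description with no test.

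**Figure D1:**
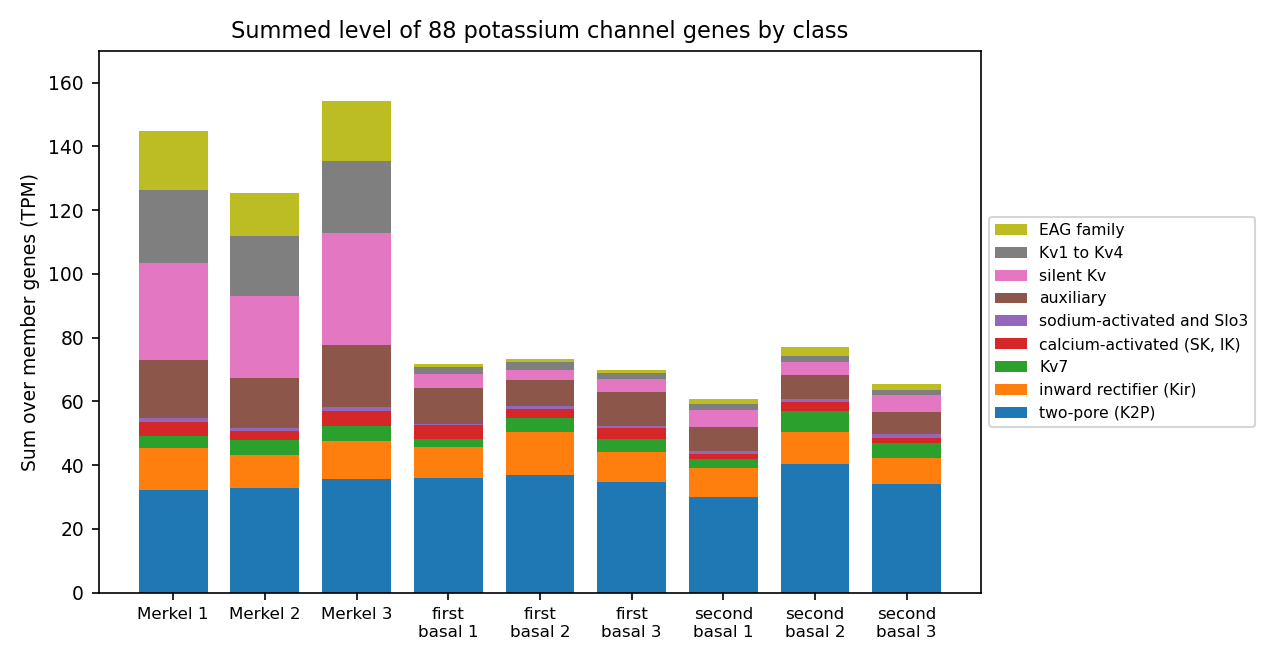
Summed level of the 88 genes in each library (TPM, linear axis from 0), stacked by class; bars are single libraries, so there are no error bars. The two-pore segment is of like height in all 9 libraries. The Merkel bars (125 to 154 TPM) exceed the basal bars (60.9 to 77.2 TPM) mainly through the silent, Kcna to Kcnd, EAG-family and auxiliary segments. Most of the silent segment of the Merkel bars is Kcnv1.

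In the comparison of cell types 11 of the 88 genes were higher in Merkel cells and 0 were lower: the silent subunit gene Kcnv1, the voltage-gated Kcna4 and Kcnd2, the Kcnd partner Kcnip3, 5 Kcnh genes, the inward rectifier Kcnj3 and the two-pore gene Kcnk12. A call required an adjusted p under 0.05 in limma on log2(TPM + 1), Benjamini-Hochberg adjusted over all 13822 genes tested, and a change of 2-fold or more. Of those 13822 genes 6.79% were called higher and 5.27% lower. Only 25 of the 88 genes were tested, since a gene had to reach 1 TPM in at least 3 of 6 values (3 Merkel values and 3 basal values, each the average of the 2 libraries of a number). Of the 25 genes 13 passed through the Merkel values alone, and such genes had to differ: 10 of the 11 calls are among them, and the other is Kcnip3. Counts of calls among the tested members are thus no evidence by themselves. The median log2 fold change was 0.68 over the 25 genes and -0.15 over all genes tested. Of the 9 genes at 1 TPM or more in all 6 values limma called 0, with 4 at an unadjusted p under 0.05. Of all 25 genes 4 were lower at an unadjusted p under 0.05. Among these, Kcnj13 and Kcnn4 passed the filter through the basal values alone and so had to be lower.

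**Figure D2:**
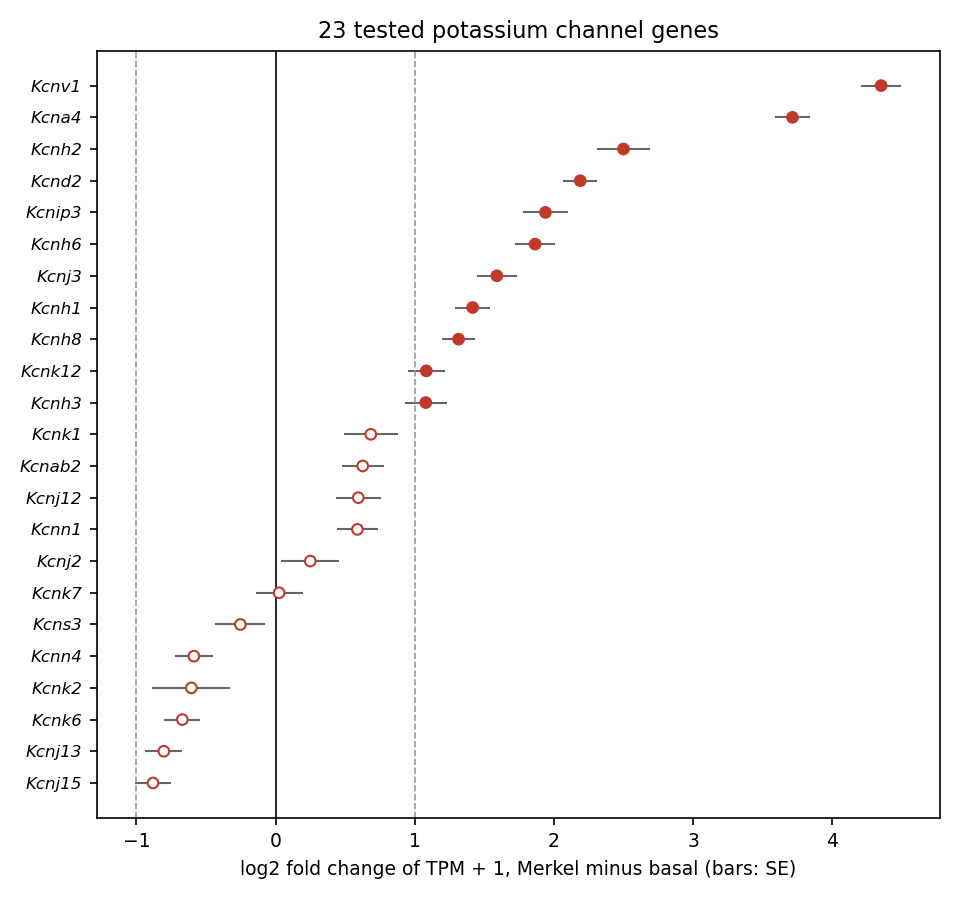
Log2 fold change (Merkel minus basal, on the log2(TPM + 1) scale) of 23 tested genes with its SE from limma, 3 Merkel against 3 basal values; filled points were called higher, and dashed lines mark a 2-fold change. Kcnv1 (4.35) and Kcna4 (3.71) stand to the right of the other 9 called genes, which run from 1.08 to 2.50, and no gene lies beyond the dashed line at -1.

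The genes were also compared library by library, which needs no filter. Of the 83 genes above 0 in at least 1 library, 35 (42.2%) had all 3 Merkel libraries above all 6 basal libraries and 5 (6.0%) had all below. Over all 18102 protein-coding genes above 0 the shares were 13.4% and 18.9%. Among the 58 untested members above 0 the shares were 36.2% above and 3.4% below, where untested protein-coding genes gave 15.5% and 4.33%. Of the 25 tested members 14 lay above and 3 below, where all tested genes gave 11.7% and 26.2%. Of these 25 genes 13 passed the filter through the Merkel values alone and 2 through the basal values alone. This split was thus largely set by the filter and is no evidence by itself. The 5 genes below were Kcnj13, Kcnj15, Kcnk4, Kcnk5 and Kcnk6. Of these Kcnk4 and Kcnk5 were untested. Kcnk4 was at 0.18 to 0.22 TPM in Merkel and 0.38 to 0.81 TPM in basal libraries. Kcnk5 was barely apart, at 0.64 to 0.75 against 0.76 to 1.17 TPM.

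Sequences before the start sites are shown for the called genes with a single RefSeq start and the 4 highest Merkel levels among them, with Kcnk7, whose levels overlapped between the cell types, for contrast. Each is the 250 bases before the RefSeq start (GRCm38.p6, the build of mm10) on the transcribed strand, 5′ to 3′, and capitals mark CpG, the dinucleotide that is dense in CpG-island promoters. They are from Kcna4 at chr2:107290339-107290588 (plus strand), Kcnh2 at chr5:24329592-24329841 (minus), Kcnd2 at chr6:21215096-21215345 (plus), Kcnh6 at chr11:106007898-106008147 (plus) and Kcnk7 at chr19:5704221-5704470 (plus). The Kcnh2 window lies inside the gene as GENCODE gives it (24319589 to 24351604, minus strand), before an internal RefSeq start and not at the gene's 5′ end.
Kcna4: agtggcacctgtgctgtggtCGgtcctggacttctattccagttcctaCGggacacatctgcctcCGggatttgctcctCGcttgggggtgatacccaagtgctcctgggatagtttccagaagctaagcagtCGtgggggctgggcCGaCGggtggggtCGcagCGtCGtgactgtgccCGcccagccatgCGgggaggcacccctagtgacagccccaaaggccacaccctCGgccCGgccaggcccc
Kcnh2: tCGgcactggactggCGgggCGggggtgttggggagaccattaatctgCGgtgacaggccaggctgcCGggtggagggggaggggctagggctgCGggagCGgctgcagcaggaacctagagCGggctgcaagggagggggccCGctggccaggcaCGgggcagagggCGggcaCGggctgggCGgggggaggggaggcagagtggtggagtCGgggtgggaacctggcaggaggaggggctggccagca
Kcnd2: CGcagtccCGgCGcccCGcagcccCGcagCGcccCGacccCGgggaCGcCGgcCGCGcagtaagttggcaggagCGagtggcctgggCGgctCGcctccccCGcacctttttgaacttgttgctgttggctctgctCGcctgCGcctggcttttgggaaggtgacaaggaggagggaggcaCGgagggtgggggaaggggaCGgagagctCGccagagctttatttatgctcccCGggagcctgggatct
Kcnh6: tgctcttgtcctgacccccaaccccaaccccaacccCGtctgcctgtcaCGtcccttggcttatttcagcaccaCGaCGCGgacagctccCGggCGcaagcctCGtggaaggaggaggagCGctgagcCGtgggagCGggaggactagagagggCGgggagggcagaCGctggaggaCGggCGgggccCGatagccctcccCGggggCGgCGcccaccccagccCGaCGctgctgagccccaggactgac
Kcnk7: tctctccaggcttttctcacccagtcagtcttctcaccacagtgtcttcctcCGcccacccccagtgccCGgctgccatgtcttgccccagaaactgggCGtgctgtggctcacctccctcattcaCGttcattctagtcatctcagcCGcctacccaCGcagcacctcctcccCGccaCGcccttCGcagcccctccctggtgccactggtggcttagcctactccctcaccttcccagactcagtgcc
The windows hold 14 CpG in Kcna4, 14 in Kcnh2, 22 in Kcnd2, 21 in Kcnh6 and 9 in Kcnk7. RefSeq windows were found for 63 of the 88 genes (88 windows) and for 9 of the 11 called genes (11 windows); Kcnv1 and Kcnh3 are the called genes with none. The median was 16 CpG over the windows of called genes, 7 over those of tested genes not called, 7 over those of untested members and 6 over all 32851 windows. GC content had medians of 65.2%, 57.6%, 54.8% and 52.4% in the same order.

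E-box motifs are bound by basic helix-loop-helix factors such as Atoh1, and TAATTA by many homeodomain factors, and they were counted in the same windows on both strands. CAGCTG and TAATTA read the same on both strands, and each motif was counted whether or not another overlapped it. CAGCTG stood in 2 of the 11 windows of called genes (18.2%) in 22 of the 88 windows of members and in 13.0% of all windows. CAGATG, whose reverse complement is CATCTG, stood in 2 of 11 (18.2%) against 14.4%, and 1 of these is the Kcna4 window shown, as CATCTG from 195 bases before the start. TAATTA stood in 0 of the 88 windows of members and in 4.8% of all windows. A match describes these letters only.

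Silent subunits gave the most abundant potassium channel transcript of Merkel cells. Kcnv1 (chromosome 15, 45106284 to 45114920, mm10), a silent subunit that joins Kcnb channels and reduces or alters their current, was at 25.72, 22.31 and 30.76 TPM in Merkel replicates 1, 2 and 3. In basal replicates 1, 2 and 3 it was at 0.29, 0.37 and 0.30 TPM in the first and 0.27, 0.43 and 0.30 TPM in the second libraries. All 3 Merkel libraries were far above all 6 basal ones (26.3 ± 4.25 against 0.327 ± 0.0643 TPM, SD, n = 3 each; log2 fold change 4.35 ± 0.15, SE, limma adjusted p = 2.0e-07). Kcnv1 was 17.8% to 19.95% of the sum over all 88 genes in each Merkel library. Kcnb2, a known partner, was much lower, at 0.29 to 0.43 TPM in Merkel and 0 to 0.03 TPM in basal libraries. Kcns3, another silent subunit gene, was at 2.27 to 3.38 TPM in Merkel and 2.12 to 4.62 TPM in basal libraries and was not called (-0.25 ± 0.18). Kcng1 was at 0.68 to 1.13 TPM against 0.01 to 0.09 TPM, under the level for testing. The other 7 silent genes (Kcnf1, Kcng2, Kcng3, Kcng4, Kcns1, Kcns2 and Kcnv2) did not pass 0.31 TPM in any library.

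Among pore-forming voltage-gated genes, Kcna4 and Kcnd2 stood out, both of fast-inactivating A-type channels. Kcna4 (chromosome 2, 107290639 to 107298502), whose channel opens briefly on depolarisation and then inactivates, was at 13.86, 11.27 and 12.88 TPM in Merkel replicates 1, 2 and 3. It was at 0.08, 0.05 and 0.03 TPM in the first and 0.03, 0.02 and 0.02 TPM in the second basal libraries. The groups were wide apart and the Merkel values close together (12.7 ± 1.31 against 0.0383 ± 0.0153 TPM; log2 fold change 3.71 ± 0.13, adjusted p = 2.2e-07). Kcnd2 (chromosome 6, 21215503 to 21729805), the pore of a second A-type channel known from neuronal dendrites, was at 3.58, 3.46 and 4.19 TPM in Merkel libraries. It was at 0, 0.04 and 0.03 TPM in the first and 0.05, 0.04 and 0.07 TPM in the second basal libraries, so that all basal values were near 0 (2.19 ± 0.12, adjusted p = 2.8e-06). Its relative Kcnd3 was at 0.28 to 0.73 TPM against 0.05 to 0.11 TPM and Kcnd1 did not pass 0.31 TPM.

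The other Kcna genes were low: Kcna7 was at 0.48 to 0.60 TPM against 0.09 to 0.25 TPM, Kcna3 is described with the basal libraries, and Kcna1, Kcna2, Kcna5, Kcna6 and Kcna10 did not pass 0.18 TPM. Kcnc1, Kcnc2 and Kcnc4 did not pass 0.25 TPM. Of the 17 genes of the Kcna to Kcnd families 3 were tested and 2 were called higher, where 6.79% of all genes tested were. The called genes, Kcna4 and Kcnd2, passed the filter through the Merkel values alone.

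The auxiliary subunit genes with the highest levels belong to these channels. Kcnip3 (chromosome 2, 127456498 to 127522094) encodes a calcium-binding protein that assembles with Kcnd channels and is also known as the transcriptional repressor DREAM. It was at 6.53, 7.0 and 9.10 TPM in Merkel libraries, at 1.27, 0.78 and 1.47 TPM in the first and at 1.35, 1.09 and 1.38 TPM in the second basal libraries. The lowest Merkel library was above every basal one (1.94 ± 0.16, adjusted p = 2.9e-05). Of the other Kcnd partners of this family, Kcnip2 was at 0.81 to 1.87 TPM against 0.24 to 0.57 TPM, Kcnip1 at 0.30 to 0.45 TPM against 0 to 0.08 TPM, and Kcnip4 at 0.24 to 0.49 TPM against 0.29 to 0.93 TPM. Kcnab2, a beta subunit of Kcna channels, was at 4.55 to 4.89 TPM in Merkel libraries, within the first basal libraries (3.41 to 5.61 TPM) and above the second (1.15 to 1.73 TPM). It was not called against the averaged basal values (0.63 ± 0.15, adjusted p = 0.0096), and was called higher against the second libraries alone (1.21, adjusted p = 0.00022). Of the 12 auxiliary genes 2 were tested.

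**Figure D3:**
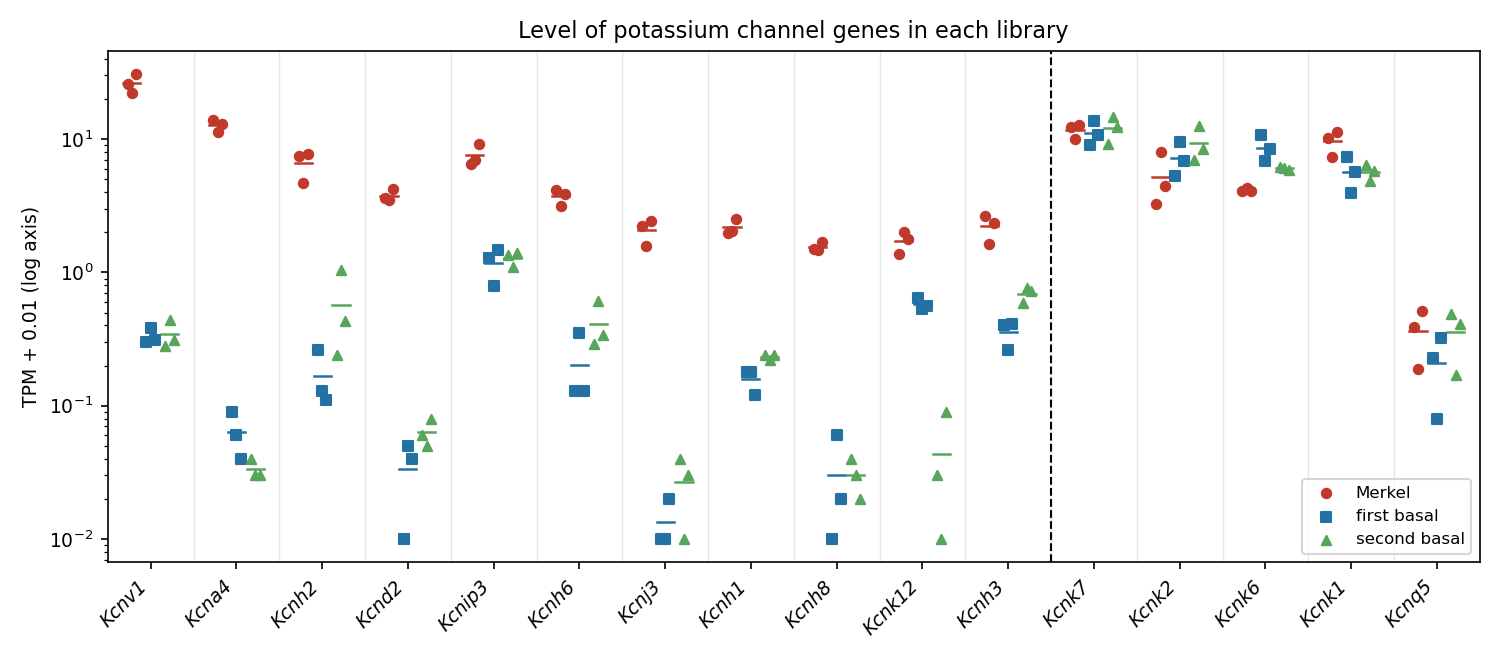
TPM plus 0.01 on a log axis for the 11 genes called higher in Merkel cells (left of the dashed line, by fold change) and for Kcnk7, Kcnk2, Kcnk6, Kcnk1 and Kcnq5 (right); each point is 1 library and short lines are group means. Left of the dashed line the Merkel points lie above all basal points for every gene, from Kcnv1 (22.3 to 30.8 TPM) to Kcnh3 (1.63 to 2.66 TPM), and right of it they overlap with basal points except for Kcnk6, below, and Kcnk1, just above.

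The Kcnh family was higher in summed level in Merkel cells, at 13.5 to 18.8 against 0.82 to 2.78 TPM. Its channels (EAG, ERG and ELK) open on depolarisation, and the ERG members are known for the slow repolarising current of the heart. Of 8 genes 5 were tested and all 5 were called higher, where 6.79% of all genes tested were. These 5 passed the filter through the Merkel values alone and so had to differ, which makes their count no evidence by itself. Kcnh2 (chromosome 5, 24319589 to 24351604), the ERG gene of the cardiac current, was at 7.51, 4.67 and 7.76 TPM in Merkel libraries, at 0.25, 0.12 and 0.10 TPM in the first and at 0.23, 1.03 and 0.42 TPM in the second basal libraries. The second basal library of number 2 was the highest basal value and still far under the lowest Merkel value (2.50 ± 0.19, adjusted p = 1.8e-05). Kcnh6, a second ERG gene, was at 4.14, 3.14 and 3.86 TPM against 0.12, 0.34 and 0.12 TPM in the first and 0.28, 0.60 and 0.33 TPM in the second basal libraries (1.86 ± 0.14, adjusted p = 2.1e-05). Again no basal library reached a Merkel one.

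The EAG gene Kcnh1 was at 1.98, 2.05 and 2.49 TPM in Merkel libraries and at 0.17, 0.17 and 0.11 TPM in the first and 0.23, 0.21 and 0.23 TPM in the second basal libraries (1.42 ± 0.12, adjusted p = 4.2e-05). It overlaps Hhat on the opposite strand, which was at 1.60 to 2.22 TPM in Merkel and 2.49 to 2.87 TPM in basal libraries. The ELK gene Kcnh8 was at 1.49, 1.46 and 1.67 TPM, against 0 to 0.05 TPM in all 6 basal libraries (1.32 ± 0.12, adjusted p = 4.4e-05). The ELK gene Kcnh3 was at 2.66, 1.63 and 2.33 TPM, against 0.39, 0.25 and 0.40 TPM in the first and 0.58, 0.76 and 0.71 TPM in the second basal libraries (1.08 ± 0.15, adjusted p = 0.00059). Kcnh3 was the weakest of these calls: it fell under a 2-fold change without Merkel replicate 1 (0.98) and against the second basal libraries alone (0.92). Kcnh3 overlaps Mcrs1 on the opposite strand, which was at 21.0 to 32.1 TPM in Merkel and 24.0 to 31.1 TPM in basal libraries. The strand setting of the quantification is not given in the sources used here, so reads of such pairs could have been divided between them. The remaining members were low: Kcnh5 was at 0.31 to 0.53 TPM against 0 to 0.08 TPM, Kcnh7 at 0.19 to 0.21 TPM against 0.03 to 0.14 TPM, and Kcnh4 did not pass 0.08 TPM.

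Of 5 tested inward rectifiers 1 was called higher and 0 lower by limma, where 6.79% and 5.27% of all genes tested were. Kcnj3, a subunit of the channels that G proteins of inhibitory receptors open, was at 2.20, 1.56 and 2.43 TPM in Merkel libraries and at 0 to 0.03 TPM in all 6 basal libraries (1.59 ± 0.14, adjusted p = 4.8e-05). Of its possible partners Kcnj6 was at 0.59 to 1.28 TPM in Merkel libraries and at 0 to 0.01 TPM in basal libraries, Kcnj9 did not pass 0.19 TPM and Kcnj5 did not pass 0.02 TPM. The ATP-sensitive channel gene Kcnj11 was at 0.50 to 1.29 TPM against 0 to 0.14 TPM, and its sulfonylurea receptor gene Abcc8, which is not a member by symbol, was called higher (2.27 ± 0.862 against 0.167 ± 0.0912 TPM; 1.46 ± 0.20, adjusted p = 0.00054). Below the level for a call, Kcnj15 was at 2.17, 1.78 and 1.68 TPM in Merkel libraries and 3.76 to 4.90 TPM in basal libraries with no overlap, a change short of 2-fold (-0.88 ± 0.13, adjusted p = 8.0e-04). Kcnj13 was at 0.11 to 0.36 TPM against 0.72 to 2.05 TPM (-0.80 ± 0.13, adjusted p = 0.0016), and passed the filter through the basal values alone. Kcnj13 overlaps Gigyf2, on the opposite strand, which was at 18.1 to 22.9 TPM in Merkel and 21.9 to 27.8 TPM in basal libraries. Kcnj2, the classical strong rectifier, was at 2.76 to 3.19 TPM against 1.30 to 3.99 TPM (0.25 ± 0.21). Kcnj12 was at 1.03 to 1.66 TPM against 0.23 to 0.83 TPM (0.59 ± 0.16, adjusted p = 0.017), again short of a 2-fold change.

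Two-pore channels were the most abundant class in basal keratinocytes, and 4 of the 5 tested genes of the 14 were not called. Of all genes tested 12.1% were called in either direction. Kcnk7, a relative of Kcnk1 for which no current of its own is known, was at 12.29, 10.07 and 12.79 TPM in Merkel libraries. It was at 9.08, 13.62 and 10.70 TPM in the first and 9.25, 14.65 and 12.41 TPM in the second basal libraries, so that the groups overlapped throughout (0.03 ± 0.17, adjusted p = 0.92). Kcnk1, a weakly rectifying channel of many epithelia, was at 10.19, 7.36 and 11.38 TPM in Merkel libraries. It was at 7.32, 3.95 and 5.62 TPM in the first and 6.35, 4.81 and 5.71 TPM in the second basal libraries. The lowest Merkel library (7.36 TPM) was only just above the highest basal one (7.32 TPM), and the change was under 2-fold (0.68 ± 0.19, adjusted p = 0.019).

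Kcnk2, a channel gated by membrane stretch, was at 3.26, 7.94 and 4.47 TPM in Merkel libraries, at 5.32, 9.56 and 6.87 TPM in the first and at 7.01, 12.51 and 8.45 TPM in the second basal libraries. Sample number 2 was the highest in each of the 3 groups, and the groups overlapped (-0.61 ± 0.28, adjusted p = 0.12). Within each number the Merkel library lay below both basal libraries, and with the number as a block limma gave -0.61 ± 0.12 and an adjusted p of 0.0018, still under a 2-fold change. Kcnk6, related to Kcnk1 and known from lysosomes and vessels, was at 4.04, 4.29 and 4.09 TPM in Merkel libraries. It was at 10.63, 6.86 and 8.41 TPM in the first and 6.14, 6.05 and 5.89 TPM in the second basal libraries, all above every Merkel library, a change short of 2-fold (-0.67 ± 0.13, adjusted p = 0.0032). Kcnk12, whose product gives little current alone, was at 1.37, 1.99 and 1.76 TPM in Merkel libraries, at 0.63, 0.52 and 0.55 TPM in the first and at 0.02, 0 and 0.08 TPM in the second basal libraries (1.08 ± 0.13, adjusted p = 0.00029). Its call was lost against the first libraries alone (0.78, adjusted p = 0.0029). Kcnk9, Kcnk15 and Kcnk18 were listed at 0 in all 9 libraries, as were Kcna10 and Kcnj1.

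The Kcnq genes, whose channels give the slow current that steadies the resting voltage of neurons, overlapped in their summed level between the cell types. Kcnq5, one of the 3 genes by which the channel set was marked, was at 0.38, 0.18 and 0.50 TPM in Merkel libraries. It was at 0.22, 0.07 and 0.31 TPM in the first and 0.48, 0.16 and 0.40 TPM in the second basal libraries, so that the groups overlapped fully and the gene was under the level for testing. Of the other 2 such genes, Kcna4 was higher in Merkel cells and Kcnk1 was not called. Kcnq3 was at 0.42 to 0.94 TPM against 0.01 to 0.20 TPM and Kcnq1 at 0.20 to 0.41 TPM against 0 to 0.04 TPM. Kcnq1 holds the non-coding RNA gene Kcnq1ot1 on its opposite strand.

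Of the Kcnn genes, which encode the small and intermediate calcium-activated channels, Kcnn1 was at 1.86, 1.29 and 2.01 TPM in Merkel and 0.49 to 1.49 TPM in basal libraries (0.59 ± 0.15, adjusted p = 0.011, under 2-fold). Kcnn2 was at 0.74 to 1.41 TPM against 0.08 to 0.37 TPM and Kcnn3 at 0.44 to 0.54 TPM against 0.03 to 0.19 TPM, both untested. The sodium-activated genes Kcnt1 and Kcnt2 and the Slo3 gene Kcnu1, known from sperm, were all under the level for testing, with Kcnu1 the highest at 0.70 to 1.23 TPM against 0.26 to 0.74 TPM. The untested genes with the highest group means were Kcnip2 (1.43 TPM in Merkel cells), Kcne3 (1.35 TPM in basal keratinocytes), Kcnn2 (1.15 TPM), Kcnab3 (1.01 TPM) and Kcnj4 (0.993 TPM, from 0.53 to 1.78 TPM between Merkel libraries). Of the 63 untested genes 5 were at 0 in every library.

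Within the basal group some members differed between the 2 libraries of a number. Limma, on 3 second against 3 first libraries, called 2 of 13 tested members lower in the second libraries and 0 higher, with 0 higher at an unadjusted p under 0.05; over all 13477 genes tested 3.67% were called lower and 0.675% higher. Kcnn4, the intermediate-conductance channel known from immune and red blood cells, was at 3.63, 2.12 and 2.84 TPM in the first and 0.33, 0.97 and 0.36 TPM in the second libraries, with no overlap (-1.32 ± 0.22, adjusted p = 0.014). Kcnab2 was at 5.06, 3.41 and 5.61 TPM in the first and 1.73, 1.15 and 1.63 TPM in the second libraries (-1.17 ± 0.19, adjusted p = 0.013). Both calls were lost without sample number 1 (Kcnn4 -1.08, adjusted p = 0.16; Kcnab2 -1.18, adjusted p = 0.14) or number 3 (-1.23, adjusted p = 0.26; -1.09, adjusted p = 0.23), where 5 and 2 genes of the whole table were called. They were also lost with no filter on low values (adjusted p = 0.074 and 0.071).

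Library by library, 9 of the 83 members above 0 (10.8%) had all second below all first libraries and 10 (12.0%) had all above, where protein-coding genes gave 9.5% and 15.0%. Among the 9 were Kcne3 (1.55 to 2.46 TPM in the first, 0.32 to 1.13 TPM in the second), Kcnk13 (0.88 to 1.57 against 0.06 to 0.28 TPM), known from microglia, Kcna3 (0.77 to 1.01 against 0.15 to 0.36 TPM), known from T cells, and Kcnj10 (0.16 to 0.65 against 0.02 to 0.03 TPM). Summed macrophage and Langerhans cell markers were also lower in the second libraries (113 to 264 against 10.8 to 23.4 TPM, Csf1r the most abundant, with none of the 4 at 0 in all libraries of a group), and their part in these values was not tested. Merkel levels of Kcnn4 (0.41 to 0.76 TPM) lay below all first and within the second libraries. Kcnn4 was therefore called lower in Merkel cells against the first libraries alone (-1.25, adjusted p = 0.00089), while against the averaged values it was not (-0.59 ± 0.13, adjusted p = 0.0075). In both fits Kcnn4 passed the filter through the basal values alone and so had to be lower. In the other direction Kcne4, a single-pass auxiliary subunit, was at 0.13 to 0.22 TPM in the first and 0.96 to 1.64 TPM in the second libraries, and summed melanocyte markers were at 13.7 to 31.1 and 99.3 to 143 TPM. EGFP, the reporter transcript, was at 1.73 to 3.72 and 13.4 to 18.3 TPM in the same libraries. Merkel libraries had more of both, with melanocyte sums of 145 to 203 TPM and EGFP at 178 to 247 TPM. Kcne4 was at 0.40 to 0.88 TPM there, below every second and above every first basal library. What part melanocyte or EGFP-expressing cells have in the Kcne4 values was not tested.

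**Figure D4:**
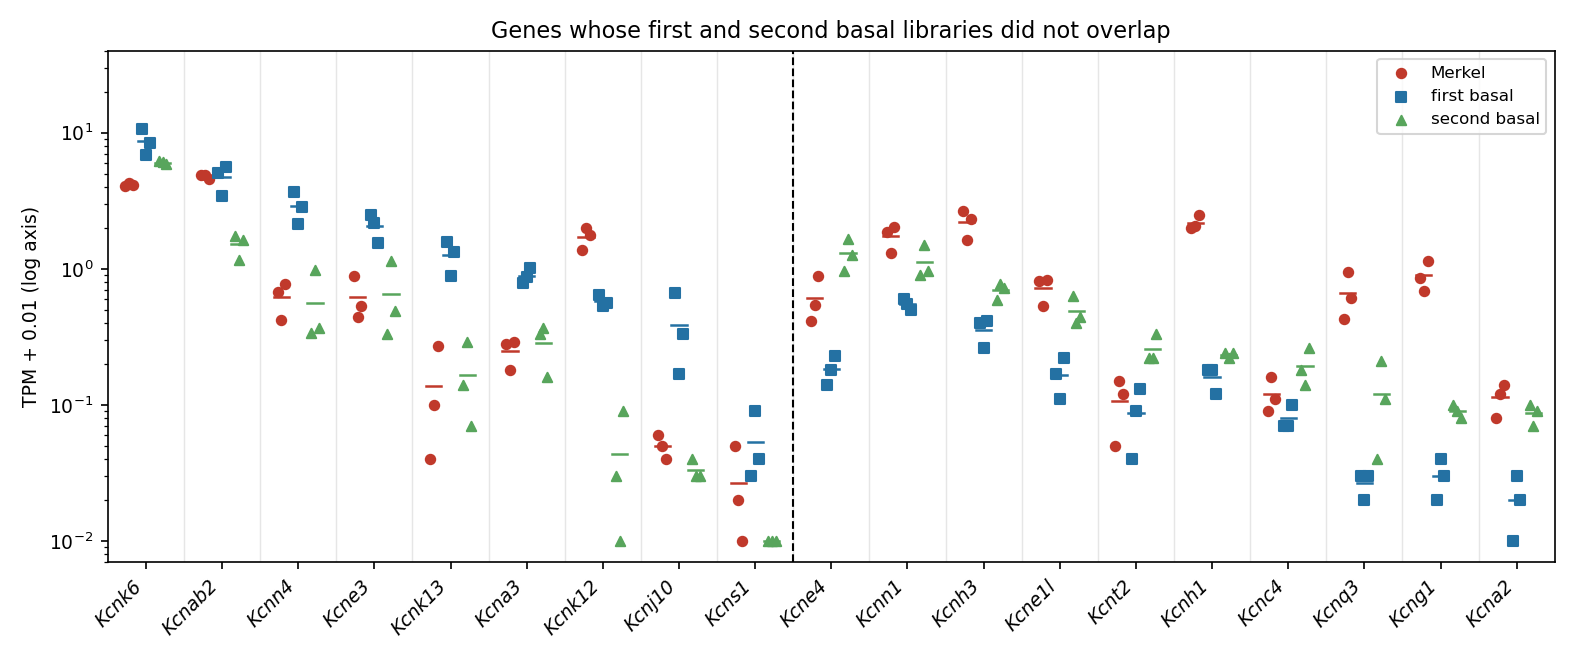
TPM plus 0.01 on a log axis for the 19 genes whose first and second basal libraries did not overlap, lower in the second left of the dashed line and higher right of it; each point is 1 library and short lines are group means. Merkel points lie with the second basal libraries for Kcnn4, Kcne3, Kcnk13 and Kcna3, with the first for Kcnab2, and above both for Kcnk12, Kcnh1 and Kcnh3.

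Of the 11 calls for Merkel cells, those of Kcnk12 and Kcnh3 depended on the kind of basal library and the other 9 held against either. Against the first libraries alone 10 of 25 tested members were called higher and 1 lower, where 7.43% and 7.24% of all genes were. Against the second alone 11 of 23 were called higher and 0 lower by limma, where 6.5% and 5.2% of all genes were. In each case 10 were among the 11 called with averaged values. Markers of other cells were higher in Merkel libraries as well: 4 of 4 tested fibroblast genes and 5 of 5 melanocyte genes were called higher, the most abundant being Col1a2 (38.3 ± 4.69 against 5.12 ± 0.847 TPM) and Dct. Of 5 sensory neuron genes Snap25 was called (9.82 ± 2.43 against 0.055 ± 0.0328 TPM), while Prph, Nefl and Scn10a stayed under 1 TPM in every library and Scn10a was at 0 in all Merkel libraries. Summed levels of the neuron list were 7.74 to 12.5 TPM in Merkel and 0.04 to 0.20 TPM in basal libraries. Of Schwann cell genes 0 of 3 tested were called by limma (summed 11.2 to 19.1 TPM in Merkel, 8.77 to 17.5 TPM in basal libraries, Mbp the most abundant). Pericyte and smooth muscle genes summed to 14.8 to 17.8 TPM in Merkel and 8.16 to 17.7 TPM in basal libraries, with Rgs5 called higher and Cspg4 the most abundant. Endothelial genes, led by Pecam1, summed to 1.67 to 3.79 and 0.45 to 1.56 TPM, and T cell genes, led by Cd3g, to 0.75 to 1.31 and 0.35 to 2.16 TPM. Suprabasal keratinocyte genes, led by Krt1, overlapped (4564 to 8800 and 4536 to 8830 TPM). The part of such cells in the channel levels was not tested.

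Genes whose products partner potassium channels but carry other names were taken as a list, with no test of the list as a whole. Of 20 listed genes 15 were tested, 4 were called higher and 0 lower (median log2 fold change 0.33), where 6.79% and 5.27% of all genes tested were. All 4 stayed under 1 TPM in every basal library, so they passed the filter through the Merkel values alone and had to differ. Dpp10, which speeds Kcnd channels, was at 9.0, 9.32 and 9.02 TPM in Merkel libraries and at 0 to 0.03 TPM in basal libraries (3.32 ± 0.12, adjusted p = 2.2e-07), so that Kcnd2, Kcnip3 and Dpp10, whose products can assemble into a single channel, were all higher. Cntnap2 and Cntn2, adhesion proteins that hold Kcna channels beside the nodes of myelinated axons, had log2 fold changes of 3.46 ± 0.13 and 3.36 ± 0.26 (adjusted p = 3.2e-07 and 1.8e-05). Abcc8, given above with Kcnj11, was the fourth.

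Of 25 genes of the sodium-potassium pump, related pumps and cation-chloride cotransporters, which build and use the potassium gradient, 12 were tested, 3 were higher and 2 lower (median 0.26), beside 6.79% and 5.27% of all genes tested. The pump beta subunit Atp1b1 was at 38.98, 32.98 and 40.36 TPM in Merkel and at 0.76 to 3.28 TPM in basal libraries (3.94 ± 0.13, adjusted p = 2.0e-07). The pump regulator Fxyd1 (1.66 ± 0.20) and the gastric-type pump gene Atp4a (1.84 ± 0.22) were also called higher; both stayed under 1 TPM in every basal library and passed the filter through the Merkel values alone. The potassium-chloride cotransporter Slc12a4 was lower (16.3 ± 3.33 against 36.7 ± 0.322 TPM; -1.14 ± 0.15, adjusted p = 0.00047). Fxyd5, the other gene called lower, was at 72.1 to 136 TPM in first and 6.18 to 14.6 TPM in second basal libraries, with Merkel libraries at 8.72 to 17.1 TPM, within or above the second ones.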

How the data were processed

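Total RNA of sorted cells was sequenced from stranded libraries with paired reads of 125 bases, as the labels' protocols state. The authors deposited TPM per gene, made with Trimmomatic, STAR and RSEM on mm10, per the submitters' processing notes; no source used here gives versions, annotation or strand setting. TPM holds no depth, so no counting interval is given. Symbols and coordinates come from GENCODE M21 (GRCm38, the same build as mm10), which matched 49326 of 49672 rows with the version dropped.

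Groups follow the titles: 3 Merkel, 3 first and 3 second basal libraries. Values were set to log2(TPM + 1), and the 2 basal libraries of a sample number were averaged on that scale. Genes that reached 1 TPM in 3 or more of the 6 values were tested with limma 3.58.1 in R 4.3.3 (variance trend, two-sided, Benjamini-Hochberg over all genes tested), in unpaired fits of Merkel against basal and second against first basal libraries. Fold changes on this scale understate those of low genes. P-values measure only the spread between sample numbers, which may be technical in part. With the Merkel and basal values of a number set against each other, deviations from group means correlated at 0.385, 0.357 and 0.202 for numbers 1, 2 and 3, and at 0.505, 0.540 and 0.414 between second and first libraries, so the numbers pair the samples. The fit was tested on simulated data with known changes. Changes were set only in genes whose basal level was above 1 TPM, and values were drawn with no pairing by sample number. The simulation therefore does not cover genes near 0 in basal libraries or paired samples. Plots used Python 3.11.15, pandas 2.3.3 and matplotlib 3.10.9.

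The genes, lists and tests were chosen with earlier results of these data known. Values in every library are given for called genes, for Kcna4, Kcnq5 and Kcnk1, and for genes with a group mean of 5 TPM or more; other members are given by range or name, and the 5 untested genes with the highest group means are named. Fxyd5, and the genes named beside the 2 calls for second against first basal libraries, were chosen after their values were seen. Of 4 T cell markers 2 were matched by symbol, and 0 were tested. Of the partner and pump lists, called genes are named, at most 4 each by adjusted p, and of each marker list of other cells the most abundant gene. Promoter windows are RefSeq's. Single values of some tested and untested genes are not reported here; they count in all sums, counts and fits. Alternatives were other filters, pseudocount, scalings, the sample number as a block, single basal libraries and leaving out each replicate.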

Additional observations from a re-analysis of the deposited data

How the results depend on the processing

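The count of 11 potassium channel genes higher in Merkel cells stayed at 11 with no filter, with median-ratio scaling, with the sample number as a replicate block (all genes: 960 higher and 759 lower) and without Merkel replicate 2 or 3 or any basal replicate; it was 10 without Merkel replicate 1. It was 3 of 7 tested at a filter of 5 TPM, 14 with a pseudocount of 0.1, and 19 of 41 tested on protein-coding genes rescaled to a common total, where more members reach 1 TPM. The count of 0 lower became 2 with a pseudocount of 0.1 (Kcnj13 and Kcnj15), 1 on rescaled protein-coding genes (Kcnj13) and 1 against the first basal libraries alone (Kcnn4). Over all genes 938 were higher and 729 lower; a 5 TPM filter gave 486 and 449, a pseudocount of 0.1 gave 1281 lower, and median-ratio scaling gave 1121 higher and 415 lower, so that 73.0% of calls were higher in place of 56.3%, and the median of all genes moved from -0.15 to 0.05. Kcnk7 changed sign to -0.01, -0.04 and -0.12 without Merkel replicate 1, Merkel replicate 3 or basal replicate 1 and to -0.028 against the second basal libraries alone; leaving out 1 replicate gave -0.12 to 0.166. The block changed no call of a member in either comparison, though it took the adjusted p of Kcnk2 from 0.12 to 0.0018 (-0.61, under 2-fold) between cell types and from 0.54 to 0.049 (0.32) between basal libraries.

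Between second and first basal libraries 91 genes were higher and 495 lower. With no filter they were 43 and 215, at 5 TPM 58 and 253, and 147 were higher with a pseudocount of 0.1. Leaving out 1 sample number gave 1 to 122 higher and 1 to 619 lower. Of the members 2 were lower, and 0 with no filter, where Kcnn4 and Kcnab2 were tested but not called. At 5 TPM, where these 2 genes were not tested, 0 were lower, and without 1 number 0 to 3 were. Kcnk1 changed sign to -0.021 with median-ratio scaling, and leaving out 1 number gave -0.08 to 0.125; Kcnip3 ranged from -0.002 to 0.141; the cause was not tested. TPM gives no depth, which limits what can be said of members under 1 TPM.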

Other observations

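Several potassium channel genes lie beside each other in the genome, and neighbours did not follow one pattern. Within 1 Mb of each other stood 16 neighbouring pairs of members, made of 26 genes on 9 chromosomes. In 1 pair the Merkel libraries lay above all basal libraries for one gene and below them for the other, though Kcnj6 was untested and Kcnj15 not called: Kcnj6 (chromosome 16, 94748636 to 94997701), of the G-protein-gated channels, was at 0.59 to 1.28 TPM in Merkel and 0 to 0.01 TPM in basal libraries, and Kcnj15, 259.9 kb further on (95257558 to 95300260), at 1.68 to 2.17 TPM and 3.76 to 4.90 TPM. In the Kcna clusters of chromosomes 3 (Kcna3, Kcna2 and Kcna10) and 6 (Kcna5, Kcna1 and Kcna6), Kcna6 was the gene with all Merkel libraries above all basal ones, at 0.04 to 0.09 TPM against 0 in every basal library. Kcna4, the most abundant Kcna gene, has no other member within 1 Mb on chromosome 2.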
